A study of Mus with 10 samples.

Results

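Checkpoint and nectin-binding receptors are cell-surface proteins that restrain or assist lymphocytes when they meet their ligands on other cells. The 9 genes examined here were *Pdcd1* (PD-1), *Ctla4*, *Lag3*, *Havcr2* (TIM-3), *Tigit*, *Cd96*, *Cd226* (DNAM-1), *Cd160* and *Cd200r1*. They were found by gene symbol among the 24564 genes of the deposited count table, and all 9 were present. ILC1s (type 1 innate lymphoid cells) are lymphocytes that stay in the tissue, and the question was how these receptors compare between liver ILC1s with and without the activating receptor NKp46, the product of *Ncr1*.

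The RNA-seq libraries were 5 from Ncr1+/+ ILC1s and 5 from Ncr1gfp/gfp ILC1s, taken from the livers of untreated young C57BL/6 mice, male or female. In Ncr1gfp/gfp mice both copies of *Ncr1* are replaced by gfp in every cell of the animal. Both genotypes were sorted as lineage-negative NK1.1+ CD49b- CD49a+ cells, but Ncr1+/+ cells were also required to stain for NKp46 and Ncr1gfp/gfp cells to carry GFP, so genotype and gate cannot be told apart. It is not stated whether a library is from a single mouse or from pooled mice, and the p-values therefore measure only the spread between these libraries. Total counts per library ranged from 15796253 to 22623133, and 3 counts corresponded to between 0.132 and 0.190 CPM (counts scaled by the effective size of each library). *Ncr1* itself was at 1913 to 2144 CPM in Ncr1+/+ and at 141 to 356 CPM in Ncr1gfp/gfp libraries, in the order the labels give. Of the ILC1 marker genes, 8 of 9 were in the table, and their summed level was 4127 to 4313 CPM in Ncr1+/+ and 4227 to 4519 CPM in Ncr1gfp/gfp ILC1s, with *Gzmc* called higher and *Il7r* and *Tmem176a* called lower. NK cell markers summed to 173 to 206 CPM in Ncr1+/+ and 221 to 333 CPM in Ncr1gfp/gfp ILC1s, and T cell markers to 532 to 637 and 684 to 857 CPM, without overlap for either list, and their part in the receptor results was not tested. Of the 11 NK cell markers 1 (*Itgam*) was called higher and *Klra4* was at 0 in all libraries, and of the 10 T cell markers *Cd3e* and *Cd8a* were called higher and *Cd28* lower. The hepatocyte marker sum was highest in Ncr1gfp/gfp replicate 3 (59.2 CPM) and Ncr1+/+ replicate 1 (32.1 CPM).

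By way of background, TIGIT, CD96 and DNAM-1 share ligands of the nectin family, chiefly CD155 (encoded by *Pvr*). DNAM-1 delivers an activating signal on binding, TIGIT an inhibitory one, and the role of CD96 varies with the setting. PD-1, CTLA-4, LAG-3 and TIM-3 are best known from T cells, where they rise after activation and dampen the response. CD200R1 is an inhibitory receptor that, in mouse liver, is carried by ILC1s and not by conventional NK cells. CD160 is a receptor for HVEM, encoded by *Tnfrsf14*, and is found on NK cells and ILC1s.

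The genes lie on several chromosomes, in the coordinates of the deposited table, which names no build. *Tigit* (16:43648974-43664297, minus strand), *Cd200r1* (16:44765849-44795090, plus strand) and *Cd96* (16:46035770-46120361, minus strand) are on chromosome 16. *Pdcd1* (1:95934882-95949130) and *Ctla4* (1:60965869-60972676) are on chromosome 1. *Lag3* is on chromosome 6 from 124854377 to 124861723, *Havcr2* on chromosome 11 from 46268433 to 46294756, *Cd160* on chromosome 3 from 96602686 to 96633274 and *Cd226* on chromosome 18 from 89366819 to 89439719.

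Liver ILC1s expressed 6 of the 9 receptors at a high level and 3 at a low level. To compare genes with each other, CPM was divided by exon length in kilobases (RPKM). In Ncr1+/+ ILC1s *Cd226* was highest at 165 ± 13.5 RPKM, followed by *Cd160* at 150.4 ± 16.5 RPKM and *Cd96* at 107.5 ± 7.43 RPKM (SD, n = 5 each). *Cd200r1* (76.2 ± 5.20 RPKM), *Tigit* (66.04 ± 4.17 RPKM) and *Lag3* (57.3 ± 8.35 RPKM) formed a middle range. The 3 remaining receptors were far lower, *Pdcd1* at 5.09 ± 2.27 RPKM, *Ctla4* at 2.16 ± 1.27 RPKM and *Havcr2* at 0.0872 ± 0.0879 RPKM. The same 6 genes were the high ones in Ncr1gfp/gfp ILC1s, from 162 ± 13.0 RPKM for *Cd226* down to 57.8 ± 4.20 RPKM for *Lag3*.

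Within single libraries, not every step of this order held. *Cd226* exceeded *Cd160* in 4 of 5 Ncr1+/+ and 3 of 5 Ncr1gfp/gfp libraries, and their log2 ratio of 0.14 ± 0.19 and 0.05 ± 0.14 (SD) lay within its spread. *Cd200r1* exceeded *Tigit* in 5 of 5 Ncr1+/+ but only 2 of 5 Ncr1gfp/gfp libraries, with log2 ratios of 0.21 ± 0.10 and -0.07 ± 0.16 (SD). *Tigit* exceeded *Lag3* in 4 of 5 Ncr1+/+ libraries, within the spread (0.21 ± 0.23), and in 5 of 5 Ncr1gfp/gfp libraries (0.35 ± 0.18). The difference between the genotypes in these ratios was not tested. *Cd160* exceeded *Cd96*, *Cd96* exceeded *Cd200r1* and *Lag3* exceeded *Pdcd1* in all 10. *Pdcd1* exceeded *Ctla4* in 4 of 5 Ncr1+/+ and 5 of 5 Ncr1gfp/gfp libraries, and *Ctla4* exceeded *Havcr2* in 5 of 5 and 3 of 5. *Cd200r1* has near relatives next to it on chromosome 16 that were also expressed, and reads shared with them would be left out by the counting, so its level is uncertain.

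**Figure D1:**
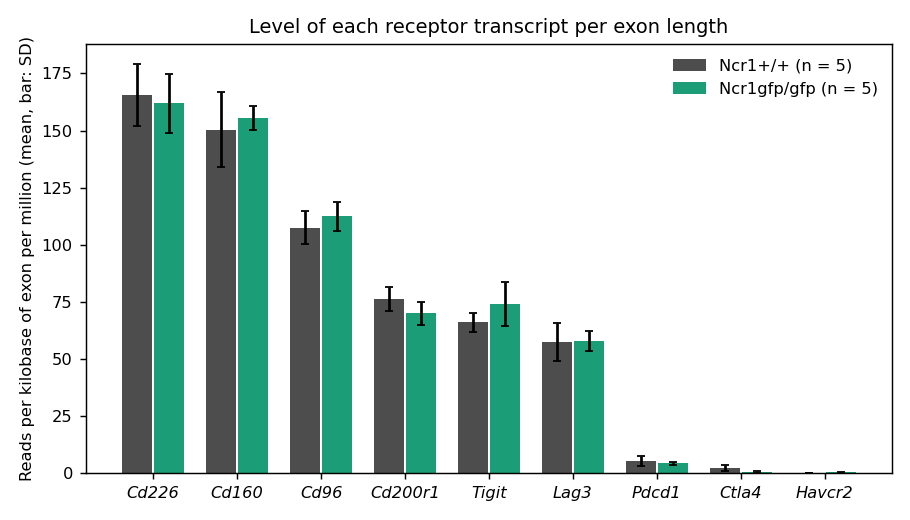
Mean level of each receptor transcript in RPKM (vertical axis, linear from 0) in Ncr1+/+ (grey) and Ncr1gfp/gfp (green) liver ILC1s, with bars for the SD of 5 libraries. *Cd226* and *Cd160* stand at 150.4 to 165, while *Pdcd1*, *Ctla4* and *Havcr2* are at or under 5.09.

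The levels were then compared between the genotypes. Of the 9 receptors, 8 passed the filter on low counts and *Havcr2* did not. In edgeR's quasi-likelihood test 0 of the 8 were called, either higher or lower, where 0.733% of all tested genes were called and 0.532% were called lower. A call needed a fold change above 1.5 or below 0.7 together with a Benjamini-Hochberg p, adjusted over 11463 genes, under 0.05. With the adjusted p alone the count was also 0, against 1.35% of all tested genes. At an unadjusted p under 0.05 the same test gave 1 receptor, *Ctla4*, against 11.4% of all tested genes. DESeq2 called 1 receptor, again *Ctla4*, where it called 122 of 16610 genes in all. With limma-voom 0 receptors were called, and 77 of 11463 genes in all. Of the 8 tested receptors 4 had a lower and 4 a higher estimate, and their median log2 fold change was -0.01, against 0.00 over all tested genes. Fewer cells of a type and less RNA per cell cannot be told apart in such bulk libraries.

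The 3 nectin-binding receptors did not pass the test between the genotypes, and their estimates were close to 0. *Cd226* had 396, 398, 467, 379.6 and 416 CPM in Ncr1+/+ replicates 1 to 5 and 355, 387, 419, 437 and 415 CPM in Ncr1gfp/gfp replicates 1 to 5. The lowest library was Ncr1gfp/gfp replicate 1 and the highest Ncr1+/+ replicate 3, and the groups overlapped. The log2 fold change was -0.03 ± 0.06 (SE, edgeR adjusted p = 0.921), with a 95% interval of -0.16 to 0.10.

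*Cd96* had 252, 214, 249, 224 and 233 CPM in Ncr1+/+ and 244, 266, 243, 244 and 228 CPM in Ncr1gfp/gfp replicates 1 to 5. Only Ncr1gfp/gfp replicate 2 lay above all Ncr1+/+ libraries. The log2 fold change was 0.06 with a 95% interval of -0.06 to 0.19 (edgeR adjusted p = 0.777).

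*Tigit* had 65.0, 59.7, 69.2, 64.4 and 59.7 CPM in Ncr1+/+ and 75.2, 77.0, 79.6, 67.7 and 56.5 CPM in Ncr1gfp/gfp replicates 1 to 5. Replicates 1 to 3 of Ncr1gfp/gfp were higher than every Ncr1+/+ library, whereas Ncr1gfp/gfp replicate 5 was lower than all of them. With a log2 fold change of 0.16 and a 95% interval of -0.02 to 0.35, the difference did not pass the test (edgeR adjusted p = 0.515).

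Because these receptors share ligands, their ratios within a library are also given, per exon length and without a test. The ratio of *Cd96* to *Cd226* was 0.652 ± 0.0480 in Ncr1+/+ and 0.699 ± 0.0797 in Ncr1gfp/gfp ILC1s (SD, n = 5 each). The ratio of *Tigit* to *Cd226* was 0.400 ± 0.0290 in Ncr1+/+ and 0.461 ± 0.0822 in Ncr1gfp/gfp ILC1s. In Ncr1gfp/gfp libraries this ratio ran from 0.352 in replicate 5 to 0.548 in replicate 1, a range that enclosed all Ncr1+/+ values (0.370 to 0.438). *Cd226* transcripts were therefore more abundant than those of *Tigit* and *Cd96* in every library.

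*Cd160* and *Cd200r1*, which were also abundant, did not pass the test either. *Cd160* had 468, 355, 389, 371 and 402 CPM in Ncr1+/+ and 404, 423, 418, 391 and 418 CPM in Ncr1gfp/gfp replicates 1 to 5. The Ncr1gfp/gfp libraries all fell inside the Ncr1+/+ range, with a log2 fold change of 0.05 and a 95% interval of -0.08 to 0.18 (edgeR adjusted p = 0.851).

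*Cd200r1* had 142, 135, 157, 135 and 151 CPM in Ncr1+/+ and 135, 145, 126, 135 and 120.2 CPM in Ncr1gfp/gfp replicates 1 to 5. Ncr1gfp/gfp replicates 1, 3 and 5 were lower than every Ncr1+/+ library, replicate 1 by less than 1 CPM, and the groups overlapped. Its log2 fold change was -0.12, with a 95% interval of -0.26 to 0.02 (edgeR adjusted p = 0.515).

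*Lag3*, whose product binds MHC class II and other ligands, had 99.0, 98.6, 112, 132 and 132 CPM in Ncr1+/+ and 109, 129.6, 116, 115 and 109 CPM in Ncr1gfp/gfp replicates 1 to 5. Every Ncr1gfp/gfp library lay within the Ncr1+/+ range. The log2 fold change was 0.01 (95% interval -0.17 to 0.19, edgeR adjusted p = 0.978), and its sign changed in some of the alternative fits. For *Cd226*, *Cd96*, *Tigit*, *Cd160*, *Cd200r1* and *Lag3*, the 95% intervals of the fold change together spanned 0.833 to 1.27, inside the limits of 0.7 and 1.5 used for calls.

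**Figure D2:**
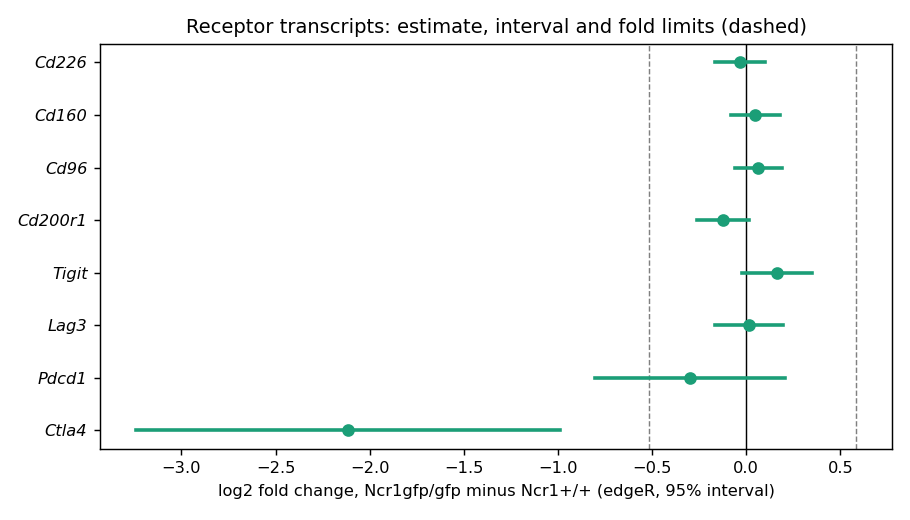
Log2 fold change between Ncr1gfp/gfp and Ncr1+/+ ILC1s (horizontal axis) for the 8 tested receptors, with the estimate of edgeR as a point and its 95% interval as a line. The upper 6 intervals lie between the dashed limits of the call and include 0, that of *Pdcd1* reaches past the lower limit, and that of *Ctla4* runs from -3.24 to -0.99.

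The remaining receptors were lower. *Pdcd1* had 5.55, 6.88, 7.65, 13.9 and 15.2 CPM in Ncr1+/+ and 7.05, 7.22, 9.64, 8.09 and 7.91 CPM in Ncr1gfp/gfp replicates 1 to 5. Ncr1+/+ replicates 4 and 5 were above all other libraries, and the coefficient of variation was 44.6% in Ncr1+/+ against 12.8% in Ncr1gfp/gfp ILC1s. With a log2 fold change of -0.30, the 95% interval of -0.80 to 0.21 was wide and included changes past the lower limit of the call (edgeR adjusted p = 0.735). The log2 fold change moved with single libraries, from -0.45 without Ncr1+/+ replicate 1 to -0.09 without Ncr1+/+ replicate 5. It was -0.53 without both libraries of the highest hepatocyte sums, a fit chosen after seeing the data (edgeR adjusted p = 0.439, unadjusted p = 0.0437). In that fit 2 of 8 receptors and 1270 of 11525 tested genes had an unadjusted p under 0.05.

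*Havcr2* had 10, 0, 6, 0 and 6 counts in Ncr1+/+ and 27, 0, 5, 9 and 9 counts in Ncr1gfp/gfp replicates 1 to 5. At 0.237 ± 0.239 and 0.610 ± 0.656 CPM (SD, n = 5 each), a difference was not detectable at this depth (two-sided exact permutation test, p = 0.397). Macrophage markers, whose cells can also carry TIM-3, summed to 16.3 to 71.2 CPM in Ncr1+/+ and 10.0 to 49.3 CPM in Ncr1gfp/gfp libraries. Their part in the *Havcr2* counts was not tested.

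*Ctla4*, which encodes an inhibitory competitor of CD28 for the ligands CD80 and CD86, was the receptor with the lowest p-value. It had 143, 54, 89, 84 and 32 counts in Ncr1+/+ and 18, 10, 31, 2 and 24 counts in Ncr1gfp/gfp replicates 1 to 5. These correspond to 8.02, 2.38, 4.45, 4.24 and 1.74 CPM against 1.14, 0.457, 1.64, 0.119 and 1.43 CPM. Every Ncr1gfp/gfp library was below every Ncr1+/+ library, with the nearest libraries at 1.64 and 1.74 CPM. Of all tested genes 3.11% had no overlap, 1.82% with Ncr1gfp/gfp lower (for *Ctla4*, two-sided exact permutation test, unadjusted p = 0.00794, the smallest that 5 libraries against 5 allow).

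The mean of *Ctla4* in Ncr1gfp/gfp ILC1s was 23.0% of that in Ncr1+/+ ILC1s, at 0.958 ± 0.647 and 4.17 ± 2.45 CPM (SD, n = 5 each). The fitted log2 fold change was -2.12 ± 0.54 (SE), with a 95% interval of -3.24 to -0.99, and the edgeR adjusted p of 0.0560 did not pass the threshold. The gene passed the filter on low counts through the Ncr1+/+ group, in which 5 of 5 libraries exceeded the filter's level of 0.540 CPM, against 3 of 5 Ncr1gfp/gfp libraries. Over the alternatives the adjusted p ranged from 0.00428 with DESeq2 to 0.192 with edgeR when Ncr1+/+ replicate 1 was left out. It also fell under 0.05 with no filter (0.00680) and without Ncr1+/+ replicate 5 (0.0358), both with edgeR.

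**Figure D3:**
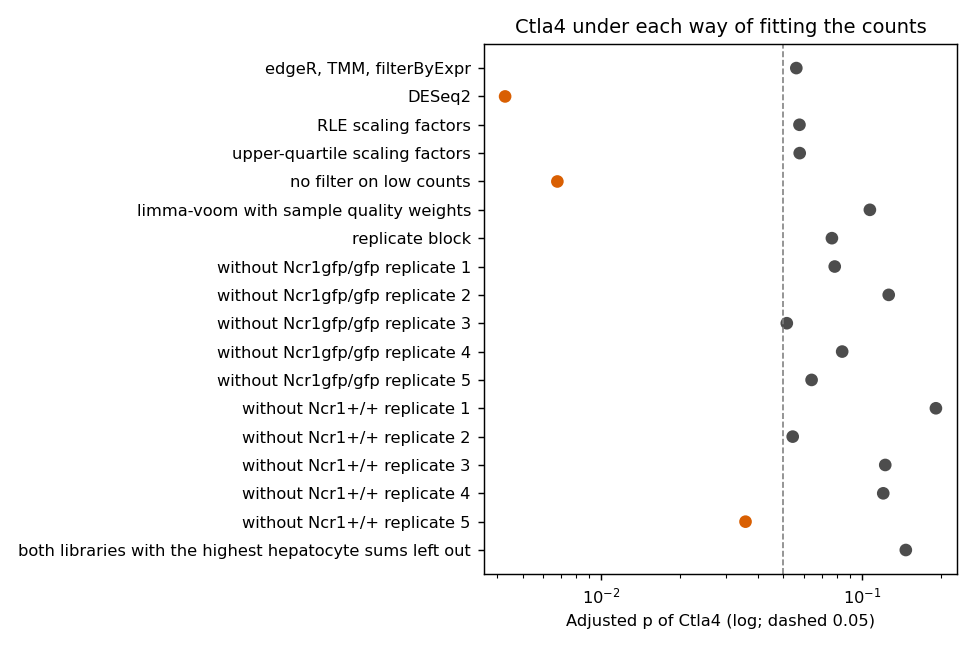
Adjusted p-value of *Ctla4* (horizontal axis, logarithmic) for each way of fitting the counts (vertical axis), with the threshold of 0.05 as a dashed line. DESeq2, no filter on low counts and leaving out Ncr1+/+ replicate 5 fall under it, at 0.00428, 0.00680 and 0.0358, and all other points lie above it.

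*Ctla4* is also a gene of T cells, and regulatory T cells in particular carry it. The T cell marker sum was higher in Ncr1gfp/gfp libraries, and *Cd3g* made up most of it (501 CPM in Ncr1+/+ and 687 CPM in Ncr1gfp/gfp ILC1s on average). The members of the list went both ways. In the same order, *Cd3e* averaged 5.72 and 21.1 CPM, *Cd3d* 6.62 and 13.6 CPM (edgeR adjusted p = 0.0527) and *Cd8a* 6.69 and 19.4 CPM. The filter left out *Cd5* (0.121 and 0.919 CPM), *Cd6* (0.0189 and 0.424 CPM) and *Cd8b1* (0.304 and 0.0106 CPM). *Lef1* was lower in Ncr1gfp/gfp ILC1s, at 21.9 and 14.8 CPM, but was not called (edgeR adjusted p = 0.0529). *Cd28* was lower as well, at 43.1 and 22.6 CPM. *Cd4* was at 1.95 CPM in Ncr1+/+ and 2.31 CPM in Ncr1gfp/gfp ILC1s. *Foxp3*, the defining factor of regulatory T cells, which was looked at after the *Ctla4* values were seen, had between 0 and 5 counts in Ncr1+/+ and between 0 and 2 counts in Ncr1gfp/gfp libraries. The part of T cells in the *Ctla4* counts was not tested.

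**Figure D4:**
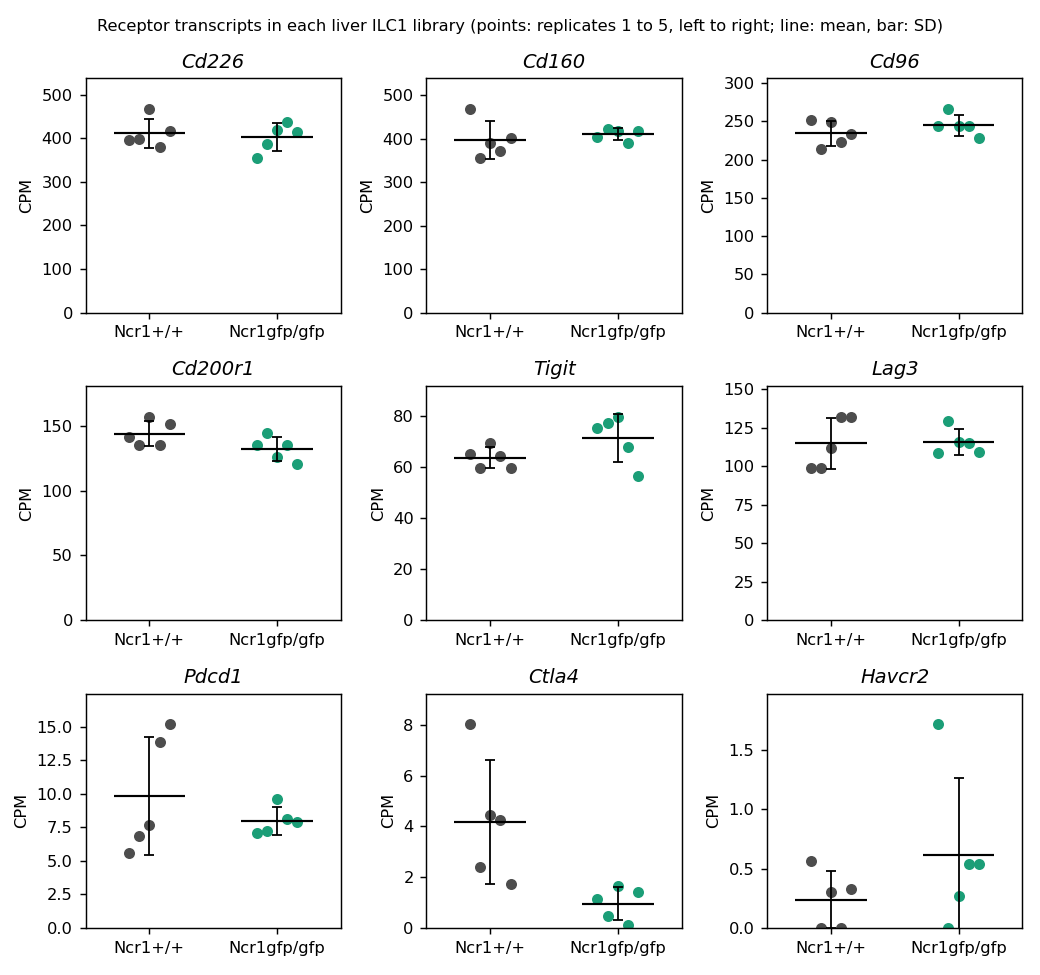
CPM of each receptor transcript (vertical axes, linear from 0) in the 5 Ncr1+/+ (grey) and 5 Ncr1gfp/gfp (green) libraries, with the mean as a line and the SD as a bar. The genotypes overlap in every panel but that of *Ctla4*, where Ncr1+/+ libraries are at 1.74 to 8.02 and Ncr1gfp/gfp libraries at 0.119 to 1.64 CPM.

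The genes whose pattern over the 10 libraries was most like that of *Ctla4* were *Sh3bp4*, *Rbm11* and *Arc*. Likeness was the root mean square difference between log2 CPM values centred on each gene's mean, and it was 0.85, 0.85 and 0.88 on the log2 scale. The median over all tested genes was 1.60, and these 3 lie under it because they were picked as the smallest. These 3 genes were low as well, with means of 2.07, 0.870 and 4.60 CPM in Ncr1+/+ ILC1s, and their adjusted p-values were between 0.240 and 0.659 (edgeR).

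Next, the other genes of these pathways were taken from lists of ligands, related receptors, signalling proteins and transcription factors. Of 59 tested genes, 3 were called in Ncr1gfp/gfp ILC1s, *Nt5e* higher and *Cd28* and *Tcf7* lower, where 0.733% of all tested genes were called. At an unadjusted p under 0.05 were 3 of 11 ligands, 6 of 14 related receptors, 3 of 19 signalling proteins and 8 of 15 transcription factors, against 11.4% of all tested genes. The lists were chosen with earlier results of these data known, so these shares are not a test of the lists.

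*Cd28*, the costimulatory receptor that shares CD80 and CD86 with CTLA-4, was lower in Ncr1gfp/gfp ILC1s. It lies 5' of *Ctla4* on chromosome 1 (60803232 to 60830203), with *Icos* on the other side (61034758 to 61057164). It had 50.6, 51.0, 42.8, 35.9 and 35.2 CPM in Ncr1+/+ and 23.4, 10.2, 18.5, 29.3 and 31.5 CPM in Ncr1gfp/gfp replicates 1 to 5, without overlap. The log2 fold change was -0.94 ± 0.20 (SE, edgeR adjusted p = 0.0189). When each of the 10 libraries was left out in turn, *Cd28* was called 7 times, and not without Ncr1gfp/gfp replicate 3 or Ncr1+/+ replicate 1 or 2. The largest edgeR adjusted p of these fits was 0.0595, without Ncr1+/+ replicate 1. DESeq2 called neither *Cd28* nor *Tcf7*.

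*Icos*, a further costimulatory receptor of the same family, had 31.7 to 48.3 CPM in Ncr1+/+ and 23.1 to 36.2 CPM in Ncr1gfp/gfp libraries. Its log2 fold change of -0.38 did not pass the test (edgeR adjusted p = 0.223). *Icos* was chosen for its position beside *Cd28* and *Ctla4*, of which edgeR called *Cd28* and DESeq2 called *Ctla4*.

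*Nt5e*, which encodes the ecto-enzyme CD73 that produces adenosine, was higher. It had 29.9, 22.5, 32.2, 24.3 and 25.2 CPM in Ncr1+/+ and 34.5, 53.8, 41.4, 37.8 and 36.8 CPM in Ncr1gfp/gfp replicates 1 to 5. Every Ncr1gfp/gfp library exceeded every Ncr1+/+ library, with Ncr1gfp/gfp replicate 2 the highest. The log2 fold change was 0.61 ± 0.13 (SE, edgeR adjusted p = 0.0139). It was also called 7 times with each library omitted in turn, and not without Ncr1gfp/gfp replicate 2 or Ncr1+/+ replicate 2 or 4. *Entpd1* and *Adora2a*, which encode the enzyme upstream of CD73 and an adenosine receptor, had log2 fold changes of 0.05 and 0.01 (edgeR adjusted p = 0.798 and 0.970).

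Among the 14 tested related receptors, *Cd244*, which encodes the SLAM family receptor 2B4, was the most abundant at 219 RPKM over all libraries. It had 768 ± 34.6 CPM in Ncr1+/+ and 878 ± 40.0 CPM in Ncr1gfp/gfp ILC1s (SD, n = 5 each). Although its values did not overlap and its adjusted p was 0.0381 (edgeR), its log2 fold change of 0.19 was under the limit for a call. With each library omitted in turn, *Cd244* kept an edgeR adjusted p under 0.05 only 2 times, and it was 0.105 without Ncr1+/+ replicate 1. *Cd200r2*, a relative of *Cd200r1*, had 190 ± 20.4 CPM in Ncr1+/+ and 160 ± 11.0 CPM in Ncr1gfp/gfp ILC1s and did not pass the test (log2 fold change -0.25, edgeR adjusted p = 0.113). *Vsir*, which encodes the checkpoint protein VISTA, had 394 ± 26.6 and 392 ± 28.6 CPM (log2 fold change -0.01). *Crtam*, lower at 17.0 ± 5.34 CPM in Ncr1+/+ and 9.45 ± 4.28 CPM in Ncr1gfp/gfp ILC1s, did not pass either (log2 fold change -0.85, edgeR adjusted p = 0.117). It was called with no filter, with the replicate block and without Ncr1gfp/gfp replicate 1.

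Of 18 ligand genes 11 were tested and 0 were called by edgeR, with 3 at an unadjusted p under 0.05 (11.4% of all tested genes). Of the tested ligands 8 had a lower and 3 a higher estimate. *Lgals9*, whose product galectin-9 binds TIM-3, was the most abundant of them at 88.9 RPKM, with a log2 fold change of -0.13 (edgeR adjusted p = 0.397). *Tnfrsf14* and *Cd274*, which encodes the PD-1 ligand PD-L1, had log2 fold changes of -0.14 and -0.06. Transcripts of the CD155 gene *Pvr* were present in these libraries, at 13.1 ± 2.38 CPM in Ncr1+/+ and 10.0 ± 2.96 CPM in Ncr1gfp/gfp ILC1s (SD, n = 5 each, edgeR adjusted p = 0.478). The part of other cell types in the *Pvr* counts was not tested. The filter left out *Cd80*, *Fgl1*, *Clec4g*, *Cd200* and the nectin genes *Nectin2*, *Nectin3* and *Nectin4*, each at no more than 0.608 CPM on average in either genotype.

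Signalling proteins that act below these receptors were mostly abundant, and 0 were called by edgeR, with 3 at an unadjusted p under 0.05 (11.4% of all tested genes). All 19 were tested, of which 9 had a lower and 10 a higher estimate, with a median log2 fold change of 0.01. The integrin genes *Itgb2* and *Itgal*, whose products form the LFA-1 partner of DNAM-1, and the kinase gene *Lck* had log2 fold changes of 0.05, -0.05 and -0.01. The phosphatase genes *Ptpn6* and *Inpp5d*, whose products serve inhibitory receptors, had 0.09 and -0.04.

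Of 15 tested transcription factors linked to checkpoint receptor expression, 13 had a lower and 2 a higher estimate, where 5648 of 11463 tested genes were lower. The median log2 fold change was -0.23, in a list chosen with earlier results of these data known. *Tcf7*, which encodes TCF-1, was called, at 77.2 ± 14.0 CPM in Ncr1+/+ and 50.1 ± 12.4 CPM in Ncr1gfp/gfp ILC1s (SD, n = 5 each), with a log2 fold change of -0.63 (edgeR adjusted p = 0.0247). Its values overlapped. Its call was lost 5 times with each library omitted in turn (Ncr1gfp/gfp replicates 2, 3 and 4, Ncr1+/+ replicates 1 and 3), with an edgeR adjusted p of up to 0.0837.

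A further 3 factors, named here after their values were seen, had an adjusted p under 0.05 with a change below the limit for a call. *Maf*, *Ikzf2* and *Nr4a3* had log2 fold changes of -0.48, -0.44 and -0.49, without overlap (edgeR adjusted p = 0.00126, 0.00822 and 0.0175). With each library omitted in turn, *Maf* and *Ikzf2* kept an edgeR adjusted p under 0.05 all 10 times and *Nr4a3* 6 times. The related factors *Nr4a1* and *Nr4a2*, which like *Nr4a3* are induced by receptor signalling, had log2 fold changes of -1.08 and -0.89 and did not pass (edgeR adjusted p = 0.215 and 0.0640), although each was called in some of the alternative fits. The most abundant factors of the list, *Tbx21*, *Nfatc3* and *Nfatc1*, had log2 fold changes of -0.13, -0.04 and -0.04 and did not pass.

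**Figure D5:**
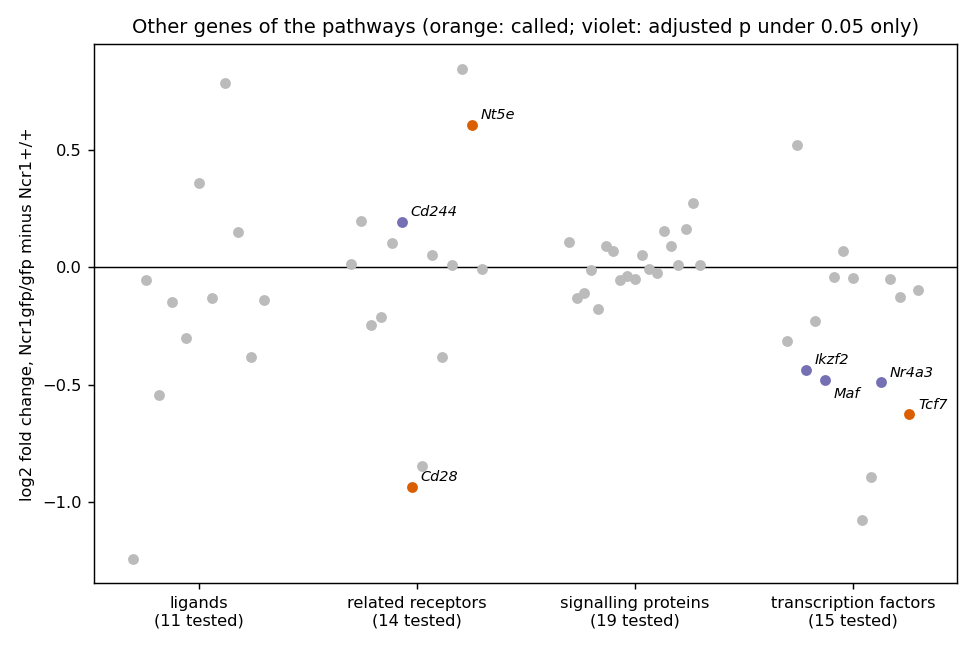
Log2 fold change between Ncr1gfp/gfp and Ncr1+/+ ILC1s (vertical axis) for the tested genes of the 4 lists (horizontal axis, genes in alphabetical order within a list). Orange points are called genes (*Nt5e* at 0.61, *Cd28* at -0.94 and *Tcf7* at -0.63), violet points passed only the adjusted p-value, and the signalling proteins lie close to 0.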

How the data were processed

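The data were RNA-seq counts of 5 Ncr1+/+ and 5 Ncr1gfp/gfp liver ILC1 libraries, made from 2 ng of total RNA with polyA-primed amplification and sequenced single-end over 51 cycles. Trimming by the authors used Trimmomatic and FASTP, mapping STAR with the mouse genome (given as mm10), and counting per gene HTSeq at its defaults, which leave out reads that map to several places. The authors deposited these counts without normalization for 24564 genes. None of the 9 receptor genes had the start given in the GRCm38.p6 annotation, so positions are given as the table lists them and no sequence was used.

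From the deposited counts, 11463 genes were kept by filterByExpr, TMM factors were computed, and genotype was the only term in edgeR's quasi-likelihood test (edgeR 4.0.16, R 4.3.3). A call needed a fold change above 1.5 or below 0.7 and a Benjamini-Hochberg adjusted p under 0.05, as in the study's methods. Standard errors came from the F statistic. CPM is TMM-scaled, RPKM is CPM per kilobase of the exon length in the table, and 0.5 was added to counts for log2 CPM. For single values, exact permutation tests (two-sided) ran over 252 splits. The edgeR steps were also run on counts simulated from edgeR's own fit to these data, which cannot show how well that fit holds for genes of low counts. The CPM of 3 counts reflects counting error alone, since PCR copies without molecular identifiers are not separate molecules. All 20 pairs of libraries of a genotype differed by more than sampling noise (chi-square per gene at least 9.27).

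The receptors, gene lists and marker lists were chosen with earlier results of these data known. Named genes are the 9 receptors, *Ncr1*, from each list the called genes and the 3 with the highest RPKM, and the 3 genes most like the receptor with the lowest p. *Icos*, *Crtam*, *Foxp3*, *Pvr*, *Entpd1*, *Adora2a*, *Ptpn6*, *Inpp5d*, *Maf*, *Ikzf2*, *Nr4a1* to *Nr4a3*, *Cd4* and the other single marker genes, and the ligands that failed the filter were named outside this rule. Alternatives were DESeq2 1.42.0, limma-voom with quality weights (limma 3.58.1), other scalings, filters and thresholds, the replicate number as a block, and leaving out each library. The fit without both libraries of the highest hepatocyte sums and the alternatives for the permutation tests were chosen after seeing the data.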

Additional observations from a re-analysis of the deposited data

Results flagged for a closer look

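None of the 9 receptors had a library past the limit used here, where a library's distance to its nearest neighbour was divided by its group's range. The highest *Havcr2* library of Ncr1gfp/gfp, replicate 1, was at 1.71 CPM against 0.536 CPM in the next and stayed under the limit. Of 46 groups of 5 libraries examined (receptors and *Ncr1*, receptor ratios, marker sums and library totals), 4 passed the limit of 0.71, where about 2.3 would pass by chance. All were sums of marker genes. The hepatocyte sum was 59.2 CPM in Ncr1gfp/gfp replicate 3, against 5.41 CPM in the next library of the genotype, and 32.1 CPM in Ncr1+/+ replicate 1, against 5.90 CPM. The neutrophil sum was 10.3 CPM in Ncr1gfp/gfp replicate 3, against 1.72 CPM. The NK cell sum was 173 CPM in Ncr1+/+ replicate 4, against 197 CPM in the next lowest library.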

How the results depend on the processing

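No receptor was called with other scalings, at least 10 counts in every library (which removed *Ctla4*), limma-voom, either other threshold or the replicate block, whereas DESeq2 and the fit with no filter called 1 each, *Ctla4*. Leaving out each library gave 0 to 1 called receptors (*Ctla4* without Ncr1+/+ replicate 5) and 60 to 98 called genes in all, against 84 with all libraries. With no filter 131 genes were called, with DESeq2 122, with limma-voom 77, with the adjusted p alone 155, and with an absolute log2 fold change above 1, 23. The 3 called genes of the other pathway lists became 6 with no filter, 6 with the replicate block, 7 with the adjusted p alone, 0 with an absolute log2 fold change above 1, and 1 to 4 when each library was left out, where the lowest count, 1, came without Ncr1gfp/gfp replicate 2 (*Cd28* called) and without Ncr1+/+ replicate 1 (*Nt5e* called). Without both libraries of the highest hepatocyte sums this count was 1, and no receptor was called. The sign of *Lag3* turned with limma-voom (-0.0378) and without both of those libraries (-0.0379), and lay between -0.0392 and 0.0690 when each library was left out, while *Cd226* lay between -0.0622 and 0.0171. The number of receptors with an exact permutation p under 0.05, 1 with all libraries, was 1 to 2 with a library left out: without Ncr1gfp/gfp replicate 5 *Tigit* and without Ncr1+/+ replicate 1 *Cd160* joined *Ctla4*. The cause of these changes was not tested. The permutation p-values were unadjusted, and the share of all tested genes under 0.05 in this test was not computed. By edgeR an unadjusted p under 0.05 was reached by 11.4% of all tested genes. Of 143 values of receptor log2 fold changes under alternatives, 133 kept their direction and side of the threshold.

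Both genotypes carry replicate numbers 1 to 5. Deviations of same-numbered libraries from their genotype mean correlated between -0.02 and 0.04 across genes, and for no number were the libraries each other's best match. No pairing by number was therefore seen, though a small shared effect would not show in such a correlation. With a replicate block the fit called 87 genes in all and 0 receptors.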
